A study of Daphnia magna with 48 samples.

Results

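The probes described here differed between cadmium-exposed and control animals by at least 0.5 on the log2 scale (1.41-fold) and by less than 0.4 between exposed and control animals for each of 7 other chemicals. There were 26 such probes among 6006 (0.433%). In 11 the mean was higher in cadmium-exposed animals, and these are called risers. In 15 it was lower, and these are called fallers. The differences of group means chose the probes, so they are given as a description, without a test, for cadmium and for the other chemicals alike.

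The series measured RNA of Daphnia magna, a freshwater water flea, with 48 2-colour Agilent arrays. Newborn animals spent 96 h at the EC10 of a chemical, the concentration that immobilises 10% of animals, and 30 animals aged 4 days were pooled whole for each sample. The cadmium-exposed group had 3 samples and was set against 3 cadmium controls of its own. Likewise 3 exposed and 3 control samples stood for isobutanol and 3-chloropropanol, which are aliphatic alcohols and non-polar narcotics, and for aniline, 4-chloroaniline, 3,5-dichloroaniline, 2,3,4-trichloroaniline and 3,4-dichlorophenol, which are substituted benzenes and polar narcotics. That made 16 groups. The labels name cadmium without its salt, and they do not say what the controls of each experiment shared. They give a renewal of the medium every 48 h for the anilines. Values are whole-body averages, in which fewer cells of a type and less RNA per cell cannot be told apart. With 3 pools in a group, p-values rest on the spread between pools of the same group, estimated over the groups together.

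Cadmium is a metal without a known nutritional role in crustaceans. It enters cells largely by routes meant for calcium and zinc, binds thiol groups of proteins and glutathione, and disturbs the redox balance. Animals answer it with metallothioneins, small cysteine-rich proteins that bind the metal. Narcotic chemicals act differently, by dissolving in membranes. The 26 probes have identifiers only: 0 of the 6006 probes matched a name in the RefSeq gene table of Daphnia magna, so no gene, role or sequence can be set beside them, and whether a metallothionein is among them is not known here.

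Each value is the log ratio of a sample and a universal reference mixed from control and exposed samples. The labels do not state the base, which was taken as 2, and every fold given rests on that. The ratio is relative, so a level says how a sample stood against that mixture and not how abundant the RNA was. Samples carried Cy5 on 24 arrays and Cy3 on the other 24. The direction is likely sample over reference. Its basis is that 510 probes with an SD of at least 0.6 had a median log2 mean ratio of 0.00 as deposited and 0.47 with the sign turned, where a pooled reference should give a value near 0. Of these 510 probes 64.3% lay nearer 0 as deposited, and the others lay nearer 0 with the sign turned. No label settles the direction, and with the sign turned every riser reads as a faller. Among the 552 array pairs with equal dye, 5 had an r over probes below -0.3 (lowest -0.41). None of these held a cadmium array, for which the lowest r was -0.26. Array SDs over probes ran from 0.23 to 0.68, and from 0.26 to 0.51 for the cadmium arrays. Within the cadmium groups, arrays correlated at 0.46 to 0.75. Within all groups the median r was 0.51 and the lowest -0.27, so replicates of some other groups agreed poorly. In the 3-chloropropanol experiment, control replicates 1 and 3 correlated at 0.94. Counting them as 1 sample gave 11 risers and 15 fallers, of which 10 and 13 were among those described here, and leaving 3-chloropropanol out of the rule gave 15 risers and 21 fallers, with all 26 probes among them. These alternatives were chosen after seeing the data.

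The risers held the largest differences. Probe DM06032P1 stood at 1.09, 1.22 and 0.82 in the cadmium-exposed samples 1, 2 and 3, against 0.05, -0.62 and -0.46 in cadmium controls 1, 2 and 3, a difference of 1.39 ± 0.24 (SE, n = 3 each). All exposed values lay above all control values. DM04521P3 stood at 0.87, 1.26 and 0.81 in exposed samples, against 0.20, -0.33 and -0.11 in controls, a difference of 1.06 ± 0.21. DM14578P1 had 0.99, 0.86 and 0.67 in exposed samples, against -0.14, -0.21 and -0.06 in controls (0.97 ± 0.10). These samples did not overlap either. DM06032P1 and DM04521P3 were the only ones of the 26 probes with a difference of at least 1 (2-fold), and 6 of the 26 reached 0.75.

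DM04164P1 was at 0.78, 1.47 and 1.16 in exposed samples, against 0.13, 0.42 and 0.17 in controls (0.89 ± 0.22). Its exposed samples spread over 0.69, yet the lowest of them lay above the highest control. DM11649P2 was at 0.67, 0.71 and 0.53 in exposed samples, against -0.16, -0.37 and 0.02 in controls (0.81 ± 0.13). DM03434P3 was at 0.51, 0.88 and 0.52 in exposed samples, against 0.12, -0.11 and -0.03 in controls (0.64 ± 0.14). In both, the groups stayed apart.

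Among the smaller risers, DM00802P3 had the tightest values, at 0.71, 0.74 and 0.62 in exposed samples, against 0.16, 0.21 and 0.14 in controls (0.52 ± 0.04). DM00262P2 followed, at 0.81, 0.64 and 0.61 in exposed samples, against 0.16, 0.13 and 0.03 in controls (0.58 ± 0.07). DM07388P3 had 0.77, 0.53 and 0.72 in exposed samples, against 0.22, 0.04 and 0.01 in controls (0.58 ± 0.10). The groups of these 3 probes lay apart by more than the range within either group. DM02534P3 averaged 0.72 ± 0.27 in exposed samples and 0.16 ± 0.12 in controls (SD, n = 3), also apart. DM10703P1 was the riser whose groups overlapped: it had 0.03, 0.69 and -0.02 in exposed samples, against -0.98, -0.04 and 0.04 in controls. Its difference of 0.56 ± 0.40 rested on exposed replicate 2 and control replicate 1, and was 0.33 without the first and 0.23 without the second.

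The fallers had smaller differences, with a median of -0.54 against 0.64 for the risers and 0.01 over all probes. DM05432P1 had the largest, with -0.45, -0.61 and -0.63 in exposed samples, against 0.68, 0.25 and 0.09 in controls (-0.90 ± 0.19). DM06227P1 stood at -0.50, -0.70 and -0.47 in exposed samples, against 0.13, 0.13 and 0.14 in controls (-0.69 ± 0.07). Its controls were nearly equal, and both probes had groups that did not overlap. DM07499P1 stood at -0.55, -0.46 and -0.75 in exposed samples, against -0.08, 0.08 and 0.24 in controls (-0.67 ± 0.13), again apart.

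DM02922P2 was at -0.25, -0.39 and -0.49 in exposed samples, against 0.17, 0.20 and 0.30 in controls (-0.60 ± 0.08). DM07791P3 was at -0.69, -0.77 and -0.64 in exposed samples, against -0.27, -0.17 and -0.15 in controls (-0.50 ± 0.05). The groups of these 2 fallers were apart and tight. DM02579P4 averaged -0.22 ± 0.11 in exposed samples and 0.30 ± 0.14 in controls. DM01087P3 averaged -0.40 ± 0.20 in exposed samples and 0.14 ± 0.11 in controls, and DM07114P2 -0.56 ± 0.23 in exposed samples and -0.05 ± 0.11 in controls. The groups of these 3 did not overlap. DM07753P2, at -0.39, 0.10 and -0.24 in exposed samples and 0.18, 0.70 and 0.46 in controls, kept its groups apart by only 0.08.

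In the other 6 fallers the groups overlapped. DM11875P2 had -1.03, 0.54 and -0.39 in exposed samples, against 0.36, 0.16 and 0.41 in controls, so that exposed replicate 2 lay above every control. Its difference of -0.60 ± 0.46 became -0.23 without exposed replicate 1 and -1.02 without exposed replicate 2. DM06369P1 had -1.83, -0.78 and -0.10 in exposed samples, against -0.10, -0.21 and -0.85 in controls. The low value was exposed replicate 1, without which the difference went to -0.05, while without exposed replicate 3 it was -0.91. DM08402P2 had -1.83, -1.03 and -0.33 in exposed samples, against -0.99, -0.60 and -0.09 in controls, and its difference of -0.50 ± 0.50 was -0.12 without exposed replicate 1, -0.87 without exposed replicate 3 and -0.27 without control replicate 3. DM10871P1 had -1.58, -0.64 and -0.50 in exposed samples, against -0.60, -0.23 and -0.34 in controls, and -0.18 was left of its -0.52 ± 0.36 without exposed replicate 1. The same exposed sample was thus the lowest value of all 4 probes. DM15105P3 averaged -1.16 ± 0.20 in exposed samples and -0.62 ± 0.44 in controls, and its difference of -0.54 ± 0.28 was -0.30 without control replicate 3. DM04384P3 averaged -0.90 ± 0.27 in exposed samples and -0.23 ± 0.42 in controls. Exposed replicate 1 was the lowest cadmium array in both of these as well. It stood at -1.32 in DM15105P3, near exposed replicate 2 (-1.23), and at -1.11 in DM04384P3, near exposed replicate 3 (-1.01).

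**Figure D1:**
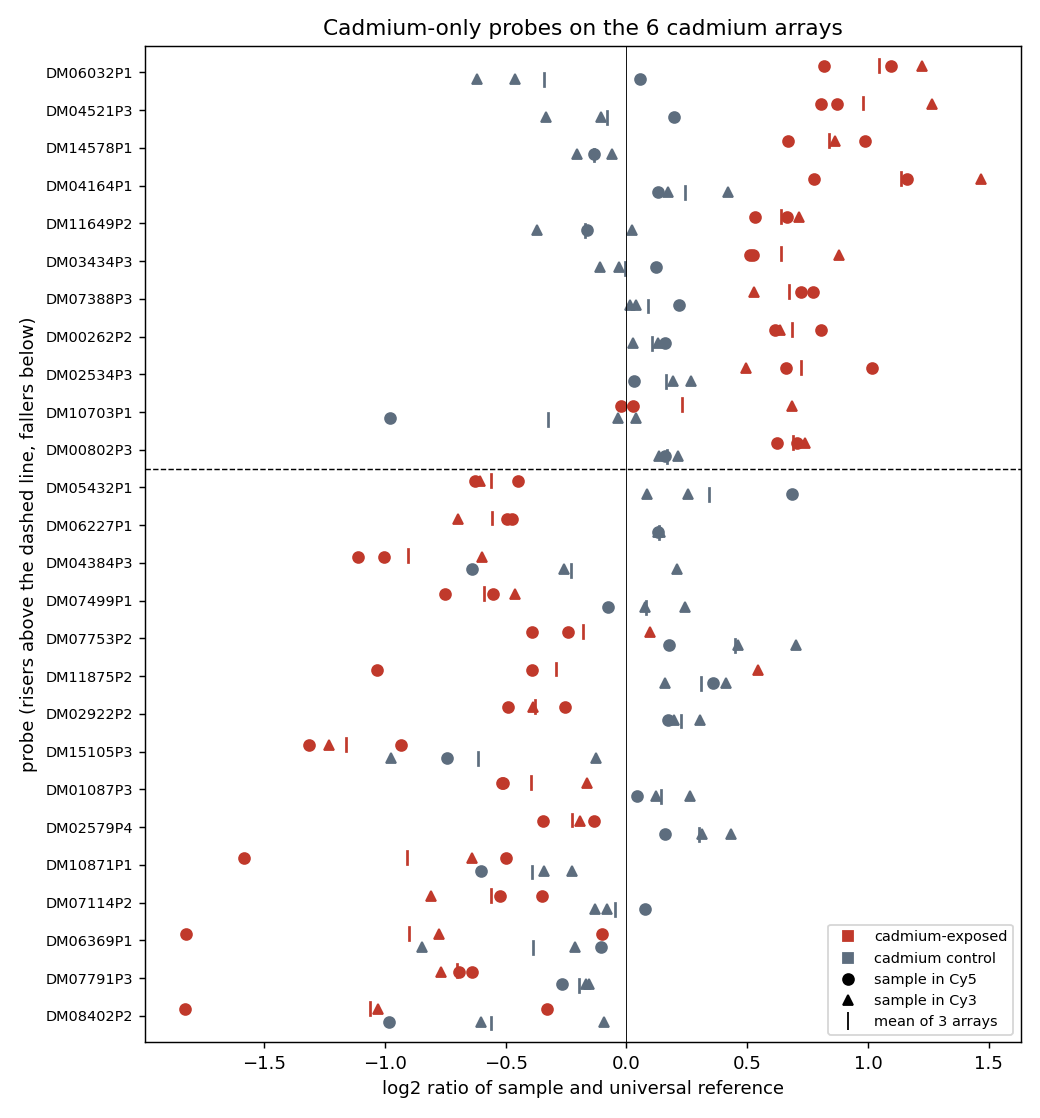
Log2 ratio of sample and universal reference (horizontal axis) of each of the 26 probes on the 3 cadmium-exposed arrays (red, upper row of a pair) and the 3 cadmium control arrays (grey, lower row), with circles for samples in Cy5, triangles for samples in Cy3 and vertical ticks for the mean of 3 arrays. The groups lie apart in 10 of 11 risers and 9 of 15 fallers, and in DM06369P1, DM08402P2, DM10871P1 and DM11875P2 exposed replicate 1 lies far to the left.

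Exposed and control arrays did not overlap in 19 of the 26 probes, where 19.3% of all probes had such groups. These were 10 of the 11 risers and 9 of the 15 fallers, and over all 6006 probes every exposed array was above the controls in 609 and below them in 551. In the model across all probes (limma, adjusted p under 0.05), 15 of the 26 were called for cadmium, where 2.95% of all probes were called (177 probes, and 114 without exposed replicate 2). These were 9 of the risers, beside 1.78% of all probes called higher, and 6 of the fallers, beside 1.17% called lower. The probes were chosen on this contrast, so nothing is read from either share. The other 11 met the rule on their means and did not pass that model, so that their name of cadmium-only probes rests on the rule.

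How many probes met the rule depended on the array set and on the scale. Without cadmium control replicate 1 there were 19 risers and without exposed replicate 1 there were 18, while without exposed replicate 2 there were 23 fallers. Of the 26 probes, 12 met the rule whichever single cadmium array was left out, 8 risers and 4 fallers. Differences adjusted for dye gave 12 risers and 15 fallers, 22 of them among the 26. With medians in place of means the rule found 13 risers and 10 fallers, of which 5 and 6 were among the 26, and the differences of DM10703P1 and DM10871P1 became 0.06 and -0.30. Quantile normalization found 15 risers and 20 fallers, of which 4 and 7 were among them. It moved 7 of the 26 differences by more than 1.5-fold, all of them toward 0: DM04164P1 to 0.54, DM02534P3 to 0.37, DM00802P3 to 0.34, DM10871P1 to -0.25, DM15105P3 to -0.23, DM06369P1 to -0.16 and DM08402P2 to -0.15. The 26 probes are those found with plain means of the values as deposited.

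Values near the limits were close to each other. The smallest positive differences that met the rule were 0.52 in DM00802P3 and 0.56 in DM10703P1, and the nearest below the limit were 0.48 in DM11546P1 and 0.47 in DM05168P1. The smallest negative ones that met it were -0.50 in DM08402P2 and in DM07791P3, and -0.49 in DM07212P3 and DM08420P4 did not. Against the limit for other chemicals, DM10703P1 was inside with 0.37 for 3,4-dichlorophenol and DM06032P1 with -0.37 for aniline. DM08860P1, with 0.44 for 3-chloropropanol, and DM14326P4, with 0.44 for 3,4-dichlorophenol, were outside. Among fallers, DM08402P2 was inside with -0.40 for 2,3,4-trichloroaniline and DM01087P3 with -0.39 for 3-chloropropanol, and DM07447P3 (-0.43) and DM07912P1 (-0.44), both for isobutanol, were outside.

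Within the limit of 0.4, the other chemicals gave the risers median differences from -0.07 (aniline) to 0.19 (3,4-dichlorophenol) and the fallers from -0.14 (2,3,4-trichloroaniline) to 0.15 (3,5-dichloroaniline), beside medians over all probes of -0.01 to 0.02. With 3,4-dichlorophenol, 10 of 11 risers were on the side of the cadmium difference and 9 of 15 fallers. With 3-chloropropanol it was 8 of 11 and 12 of 15, with 2,3,4-trichloroaniline 8 of 11 and 11 of 15, and with aniline 4 of 11 and 4 of 15. These counts use plain differences. The split of dyes was that of cadmium for 3,4-dichlorophenol and 2,3,4-trichloroaniline, and the reverse for 3-chloropropanol and aniline. Counts after dye adjustment and shares over all probes were not computed. DM06032P1 had 1.39 with cadmium, against 0.28 with isobutanol, 0.27 with 3-chloropropanol, -0.37 with aniline, 0.02 with 4-chloroaniline, 0.09 with 3,5-dichloroaniline, 0.17 with 2,3,4-trichloroaniline and -0.08 with 3,4-dichlorophenol. The SDs of DM06032P1 with 3-chloropropanol were 0.81 in exposed and 0.49 in control samples (n = 3 each). Those of DM04521P3 there were 0.80 in exposed and 0.18 in control samples. With such a spread, a mean difference within the limit does not show that a probe was flat. DM07499P1 had the smallest mean differences outside cadmium, with none past 0.15 in size. DM01087P3 was the 1 probe of the 26 that the model called for another chemical: it differed by -0.42 ± 0.13 with 3-chloropropanol after dye adjustment (adjusted p = 0.0297), where 8.72% of all probes were called for that chemical. Its plain difference there, -0.39, lay within the limit. None of the 26 was called for isobutanol (12.6% of all probes), 2,3,4-trichloroaniline (3.9%), 3,4-dichlorophenol (2.85%), 4-chloroaniline (0.0333%), aniline (0%) or 3,5-dichloroaniline (0%), and the rule, which kept large differences out, bears on this.

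Some risers lay on the other side of their controls with another chemical, on all 3 exposed arrays: DM00262P2 with isobutanol, DM06032P1 and DM07388P3 with aniline, DM04521P3 and DM03434P3 with 3,5-dichloroaniline, and DM11649P2 with 2,3,4-trichloroaniline. The faller DM07114P2 did so with isobutanol and 3,5-dichloroaniline. Exposed and control arrays did not overlap in 32.8% of all probes for isobutanol, 24.5% for 2,3,4-trichloroaniline, 9.19% for 3,5-dichloroaniline and 8.82% for aniline. The model called none of these 7 probes for those chemicals, and the difference from cadmium was not tested. The overlap was read from values not adjusted for dye.

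**Figure D2:**
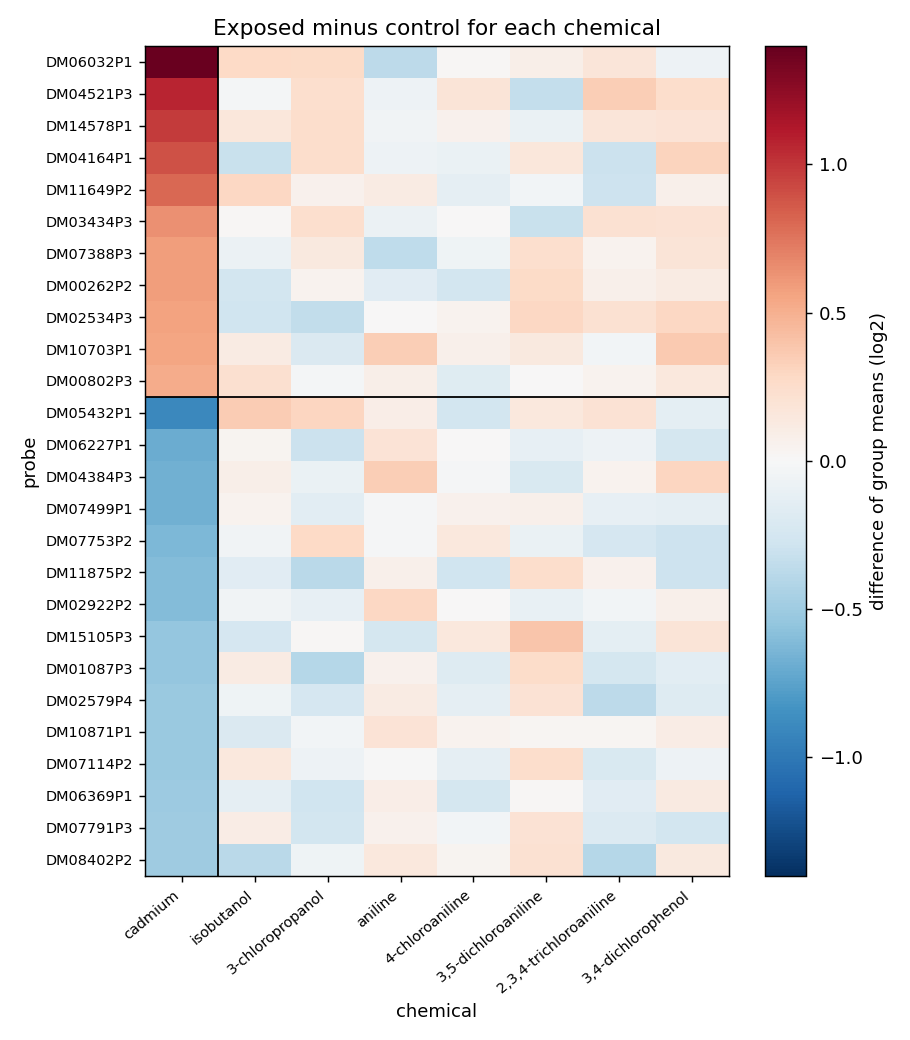
Difference of group means, exposed minus control (log2, colour), of each of the 26 probes (rows) for each of the 8 chemicals (columns), with risers above the horizontal line. The cadmium column runs from 1.39 in DM06032P1 to -0.90 in DM05432P1, and every other cell is within 0.4 of 0, which the rule set.

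The rule can be applied with each chemical in the place of cadmium. Past 0.5 in size were 357 probes for cadmium, 192 higher (3.2% of all probes) and 165 lower (2.75%), and 26 of these (7.28%) stayed under 0.4 for all other chemicals. The counts were 778 and 160 for isobutanol, 630 and 112 for 3-chloropropanol, 533 and 62 for 2,3,4-trichloroaniline, 424 and 28 for 3,4-dichlorophenol, 207 and 29 for 4-chloroaniline, 190 and 25 for aniline, and 146 and 29 for 3,5-dichloroaniline. Aniline and 3,5-dichloroaniline, for which the model called 0 of 6006 probes, thus gave sets of 25 and 29 probes by the same rule. At an unadjusted p under 0.05 they had 371 and 265 probes. Of the 25 aniline-only probes 22 were higher in exposed animals, of the 29 for 3,5-dichloroaniline 22, and of the 26 for cadmium 11.

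A level outside the exposure contrast was read next, since a probe can differ between the experiments as well as between exposed and control animals. The level of an experiment is the mean of its exposed and its control group. Levels of the 7 experiments without cadmium enter neither the cadmium difference nor the exposed-minus-control differences, and were tested with an F test over all probes (limma). Of the 26 probes 20 (76.9%) were called, 8 risers and 12 fallers, where 66.7% of all probes were called. The 26 were also more variable than most: 25 of them belonged to the 3003 probes with the larger SD, and of those 3003 probes 87.4% were called. The share among cadmium-only probes therefore lay between both backgrounds. Experiments may differ in cohort, culture and array processing, and these cannot be told apart. Each chemical had a single experiment, and the F test used the spread between pools within groups. Its p-values do not measure how levels vary between repeats of an experiment.

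The levels of the 7 experiments spanned 0.71 in the median cadmium-only probe, 0.46 among risers and 0.96 among fallers, beside 0.40 over all probes and 0.66 among the 3003 more variable ones, to which 25 of the 26 belong. This span exceeded the cadmium difference in 10 of 15 fallers and 2 of 11 risers. Over all probes it did so in 94%, but most of those had small cadmium differences, and the rule asked for a large one. DM06369P1 had the widest span, 2.07, between -1.77 in the isobutanol experiment and 0.31 in that of 3,5-dichloroaniline (adjusted p = 3.86e-06). DM08402P2 followed with 1.60 (adjusted p = 7.88e-07). DM00802P3 had the narrowest, 0.24, and was not called (adjusted p = 0.211). Not called either were DM02534P3 (0.108), DM10703P1 (0.133), DM07753P2 (0.0792), DM11875P2 (0.427) and DM02922P2 (0.132).

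**Figure D3:**
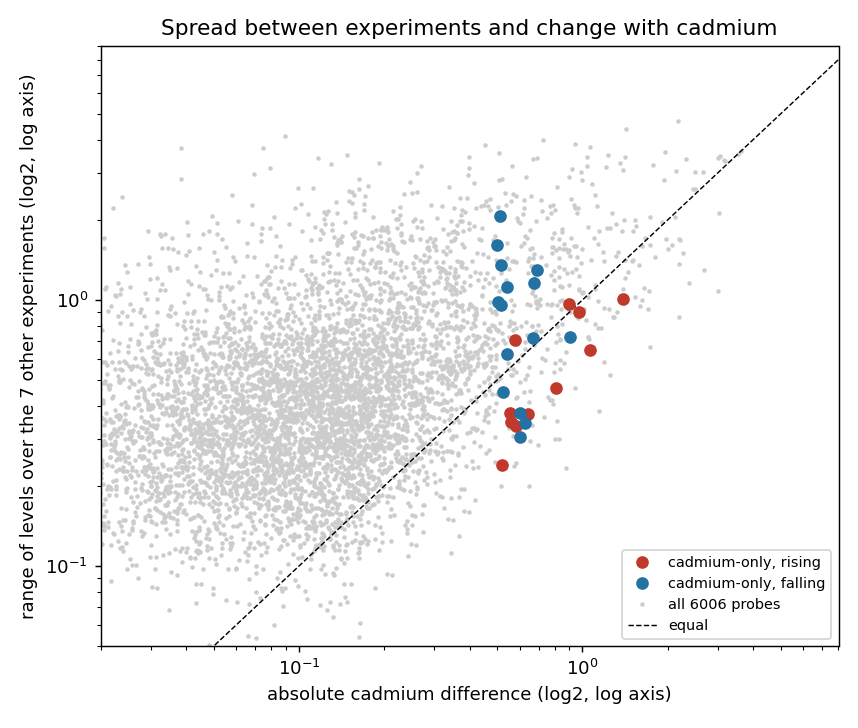
Range of levels over the 7 experiments without cadmium (vertical, log2 units on a log axis) against the absolute cadmium difference (horizontal, log2 units on a log axis) for all probes (grey), risers (red) and fallers (blue). A dashed line marks equality, 10 of 15 fallers and 2 of 11 risers lie above it, and 670 probes with a difference under 0.02 lie left of the axis.

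The fallers stood lowest in the isobutanol experiment. Their median level there was -0.83, against a median of 0.01 over all probes, and 10 of 15 had their lowest level of the 7 experiments there, beside 27.7% of all probes. Aniline was the opposite, with a median of 0.15 and the highest level for 9 of 15, beside 21.9% of all probes. DM06227P1 was at -0.56 ± 0.12 in cadmium-exposed animals and 0.13 ± 0.00 in cadmium controls, but at -1.10 ± 0.04 in isobutanol-exposed animals and -1.14 ± 0.25 in isobutanol controls (SD, n = 3). Its 12 other group means were between -0.30 and 0.27, and its levels differed among the 7 experiments (adjusted p = 2.06e-13). DM04384P3 was at -0.94 ± 0.11 in isobutanol-exposed animals and -1.02 ± 0.37 in isobutanol controls, beside -0.90 ± 0.27 in cadmium-exposed animals and -0.23 ± 0.42 in cadmium controls. In 9 of 15 fallers, both isobutanol groups had means below the cadmium-exposed mean, beside 40.9% of all probes. The rule chose fallers for cadmium-exposed means below their controls, so these shares are not like for like.

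Without the isobutanol arrays, an alternative chosen after seeing the data, 16 of the 26 probes were called for level, against 40.5% of all probes. The share among the 3003 more variable probes, to which 25 of the 26 belong, was not computed for this alternative. The isobutanol controls carried the low levels as the exposed animals did, so these levels lay outside the exposure contrast.

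The cadmium-exposed mean of the risers was usually the highest of the series. In 10 of 11 risers it lay outside the 14 means of the other experiments, where 14.5% of all probes had a cadmium-exposed mean outside them. Among the fallers this was so for 4 of 15. The rule asks for a large difference, so this position is in part set by it. DM14578P1 was the riser inside the range, at 0.84 ± 0.16 in cadmium-exposed animals beside 0.96 ± 0.07 in isobutanol-exposed animals and 0.80 ± 0.36 in isobutanol controls. The remaining groups of this probe lay between -0.13 and 0.26. In DM04521P3, DM07388P3 and DM00802P3, all 3 cadmium-exposed arrays were above all 42 arrays of the other experiments.

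Cadmium control means lay within the range of the 7 other control means in 20 of 26 probes, as in 82.9% of all probes. DM02534P3 was above all of them, at 0.16 ± 0.12 in cadmium controls, where the other control means ran from -0.63 to -0.04. DM14578P1 was below, at -0.13 ± 0.07, where they ran from -0.04 to 0.80. The fallers DM06227P1, DM07753P2, DM02922P2 and DM02579P4 had cadmium controls above every other control mean. In DM02922P2 the cadmium-exposed mean of -0.38 ± 0.12 lay within the other control means (-0.42 to -0.03), while the cadmium controls were at 0.22 ± 0.07. The same held for DM02579P4, at -0.22 ± 0.11 in exposed animals and 0.30 ± 0.14 in cadmium controls, with other control means from -0.29 to 0.19. DM06227P1 was placed likewise, at -0.56 ± 0.12 in exposed animals and 0.13 ± 0.00 in cadmium controls, with other control means from -1.14 to 0.08. In these 3 fallers the cadmium controls lay outside the other control means and the exposed animals within them. Only the isobutanol control mean was below the exposed mean in each. The next lowest control means were -0.09 (4-chloroaniline) in DM06227P1, -0.24 (aniline) in DM02922P2 and -0.22 (4-chloroaniline) in DM02579P4. Without isobutanol, the exposed means of DM06227P1 and DM02922P2 lay below every other control mean. That of DM02579P4 was level with the lowest.

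**Figure D4:**
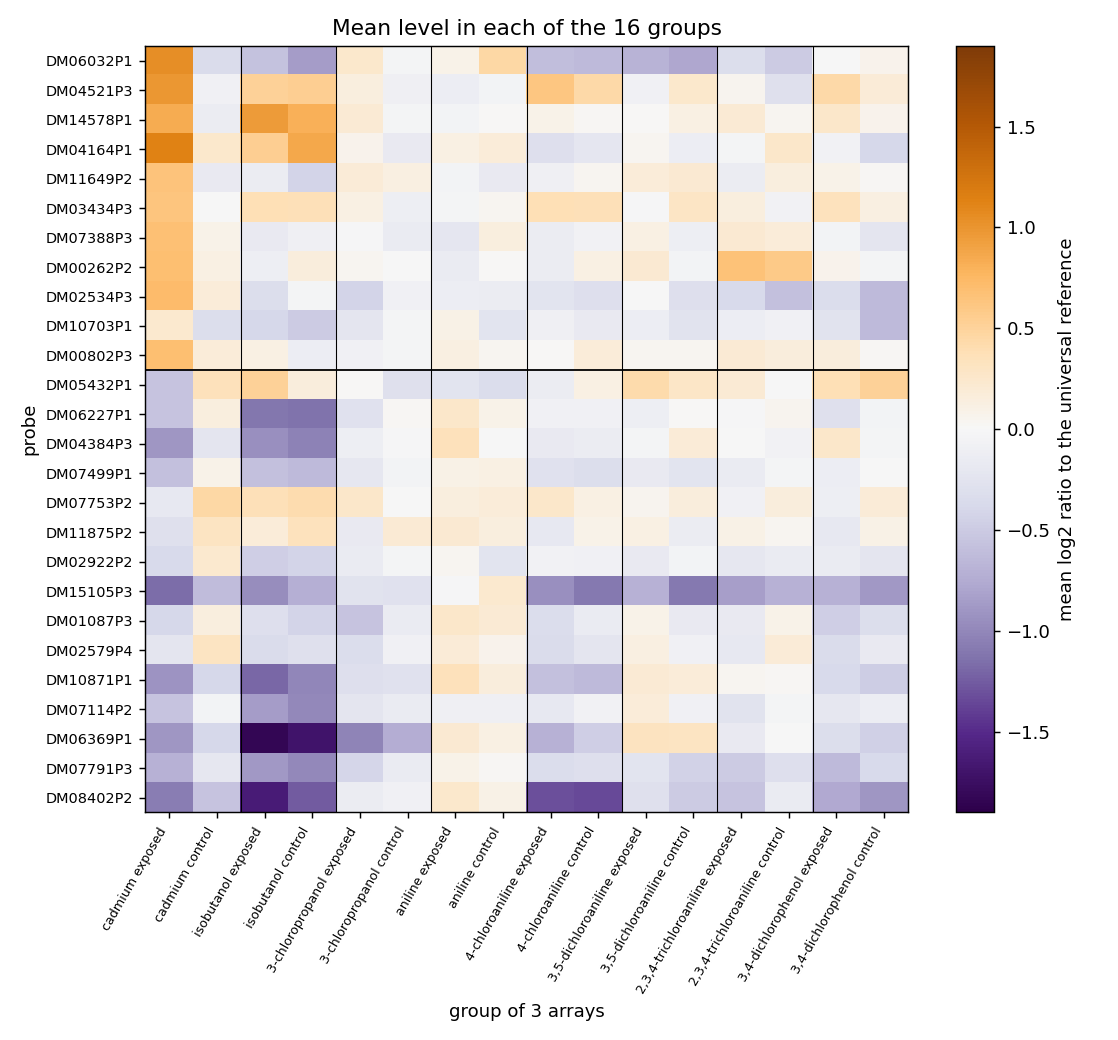
Mean log2 ratio to the universal reference (colour) of each of the 26 probes (rows, risers above the line) in each of the 16 groups of 3 arrays (columns, exposed beside control for each chemical, cadmium leftmost). The risers are highest in cadmium-exposed animals except DM14578P1, and many fallers are as low or lower in both isobutanol groups, such as DM06227P1 at -1.10 and -1.14.

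Over the 14 group means outside cadmium, the levels of the fallers were more alike than those of the risers. The median Pearson r was 0.51 among the 105 pairs of fallers (-0.73 to 0.92) and -0.05 among the 55 pairs of risers (-0.58 to 0.96), beside 0.00 among all pairs of probes. The points share experiments and a common reference, and r is given as a description. They include both isobutanol groups, in which many fallers were low, and r was not computed without these groups. The highest values were 0.96 for DM04521P3 with DM03434P3 among risers, and 0.92 for DM01087P3 with DM02579P4 and for DM10871P1 with DM06369P1 among fallers. No 2 of the 6006 identifiers share the digits before the letter P, so no second probe of the same target could be recognised.

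The dyes were not balanced between the cadmium groups. In exposed animals 2 samples were in Cy5 and 1 in Cy3, and in controls 1 was in Cy5 and 2 in Cy3. The split was the same for 3,5-dichloroaniline, 2,3,4-trichloroaniline and 3,4-dichlorophenol. It was the reverse for isobutanol, 3-chloropropanol, aniline and 4-chloroaniline. A dye effect thus enters every plain difference in part, with opposite sign in the reversed experiments. A dye effect was called (limma) on 7 of the 26 probes (26.9%), 4 risers and 3 fallers, against 35.2% of all probes. The largest were -0.36 ± 0.06 in DM07753P2, 0.34 ± 0.08 in DM02534P3, -0.33 ± 0.11 in DM10871P1, -0.32 ± 0.09 in DM10703P1 and 0.32 ± 0.10 in DM06032P1 (Cy5 minus Cy3, SE). DM07499P1 (-0.28 ± 0.04) and DM07388P3 (0.24 ± 0.04) were also called. The largest shift of a cadmium difference on adjustment for dye was 0.12, and adjustment brought DM02534P3 to 0.45 and DM10871P1 to -0.41.

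Within each dye, 25 of the 26 differences kept their sign in both dyes, beside 63% of all probes, and 14 (9 risers and 5 fallers) reached 0.5 in both. These values rest on 3 arrays a dye, from which the rule's own means were made. DM14578P1 had 0.96 among Cy5 samples and 1.00 among Cy3 samples. DM00802P3 had 0.51 among Cy5 samples and 0.56 among Cy3 samples, and DM00262P2 had 0.55 among Cy5 samples and 0.56 among Cy3 samples. DM06032P1 had 0.90 among Cy5 samples and 1.76 among Cy3 samples, and DM04521P3 had 0.64 among Cy5 samples and 1.48 among Cy3 samples, so the largest risers differed in size between dyes. DM11875P2 had -1.07 among Cy5 samples and 0.26 among Cy3 samples, where the sign turned. DM08402P2 had -0.09 among Cy5 samples and -0.68 among Cy3 samples, DM06369P1 -0.86 among Cy5 samples and -0.25 among Cy3 samples, and DM02534P3 0.81 among Cy5 samples and 0.26 among Cy3 samples. Differences more than 1.5 times away from the pooled value were also found among Cy5 samples in DM03434P3 (0.40), DM04384P3 (-0.42) and DM10703P1 (0.98), and among Cy3 samples in DM01087P3 (-0.36).

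**Figure D5:**
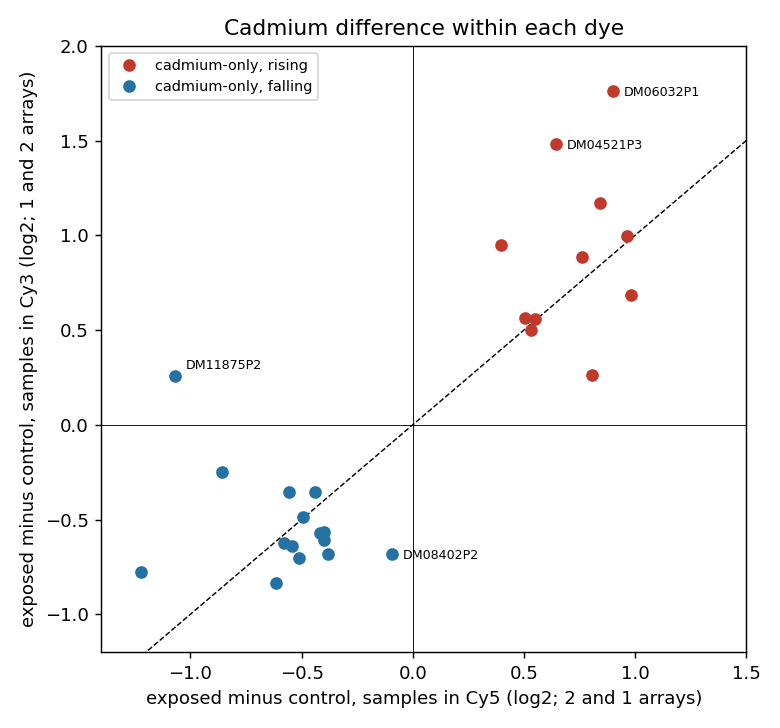
Cadmium-exposed minus control (log2) among samples in Cy5 (horizontal, 2 exposed and 1 control array) and among samples in Cy3 (vertical, 1 exposed and 2 control arrays) for the 11 risers (red) and 15 fallers (blue), with equality dashed. All points but DM11875P2 lie in the quadrants of equal sign, and DM06032P1 and DM04521P3 lie above the dashed line.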

How the data were processed

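The deposited values, taken as log2, are ratios of a sample and a universal reference, 1 per probe and array, already turned for dye: 7 control probes changed sign with the dye on all 48 arrays. The labels name Agilent 2-colour arrays, 100 ng of RNA and both dyes; for the authors' background correction, normalization, filters and log base, the sources used here give nothing. None of 6006 probes had a missing value, and 27 control probes were left out. The number of arrays limits the precision.

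Group means of 3 arrays and their differences, exposed minus control, were computed from the values as deposited, and the rule was applied to them. Tests used limma 3.58.1 in R 4.3.3, with 16 group means and dye as a covariate, over all probes, two-sided, with Benjamini-Hochberg adjusted p under 0.05 as the limit (31 residual degrees of freedom). Plots came from Python 3.11.15 with matplotlib 3.10.9. The probes, lists and tests were chosen with earlier results of these data known. All 26 probes are named.

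The replicate numbers were not treated as pairs of exposed and control samples. Deviations of 24 same-numbered pairs correlated at -0.30 to 0.30, and 7 were over 0.1. The cadmium pairs were at 0.03 to 0.28, and these values do not settle whether the samples were paired. Alternatives covered the limits of the rule, medians, scaling, quantile normalization, array weights, dye, replicate blocks and leaving out each array.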

Additional observations from a re-analysis of the deposited data

Results flagged for a closer look

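For 7 of the 26 probes, all exposed samples of another chemical lay on the opposite side of their controls from the side seen with cadmium. Each of the 26 probes was looked at with 7 other chemicals, so some such cases arise without any effect. Over all probes, exposed and control arrays lay apart, in either direction, in 32.8% for isobutanol and 24.5% for 2,3,4-trichloroaniline. For 3,5-dichloroaniline it was 9.19% and for aniline 8.82%. No result about these probes is read from the count. The difference between chemicals was not tested, and the rule kept every one of these values under 0.4 in size.

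With isobutanol, DM00262P2 was lower by -0.25, with -0.11 ± 0.21 under exposure and 0.15 ± 0.09 in controls (SD, n = 3), where it was higher by 0.58 with cadmium. DM07114P2 was higher by 0.15 with isobutanol, with -0.85 ± 0.06 under exposure and -0.99 ± 0.10 in controls, and by 0.25 with 3,5-dichloroaniline, with 0.17 ± 0.13 under exposure and -0.08 ± 0.16 in controls. Its cadmium difference was -0.52. This was the 1 probe that went against cadmium with 2 chemicals.

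With aniline, DM06032P1 differed by -0.37, with 0.09 ± 0.17 under exposure and 0.46 ± 0.17 in controls, against 1.39 with cadmium. DM07388P3 differed by -0.35, with -0.21 ± 0.15 under exposure and 0.14 ± 0.17 in controls, against 0.58 with cadmium. These are plain differences, and dye was called (limma) on both probes, higher in Cy5 by 0.32 ± 0.10 and 0.24 ± 0.04 (SE). The split of dyes with aniline was the reverse of that with cadmium, so dye enters the plain differences with opposite sign. Its part in the aniline values was not tested. Dye was not called on the other probes flagged here. With 3,5-dichloroaniline, DM04521P3 differed by -0.33, with -0.09 ± 0.04 under exposure and 0.24 ± 0.25 in controls, and DM03434P3 by -0.32, with -0.03 ± 0.04 under exposure and 0.29 ± 0.19 in controls. These are the 2 risers with the highest correlation of group means outside cadmium, and they were higher by 1.06 and 0.64 with cadmium. With 2,3,4-trichloroaniline, DM11649P2 differed by -0.29, with -0.14 ± 0.05 under exposure and 0.15 ± 0.21 in controls, against 0.81 with cadmium.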

How the results depend on the processing

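The size of the set followed its limits. With a cadmium limit of 0.4 there were 26 risers and 30 fallers, and with 0.6 there were 6 and 7. With a limit of 0.3 for the other chemicals there were 4 and 7, and with 0.5 there were 24 and 25. Scaling the arrays to equal spread gave 24 risers and 36 fallers, 8 and 11 of them among the 26. Leaving out 1 array at a time gave 8 to 19 risers and 11 to 23 fallers. The difference of DM11875P2 reversed to 0.26 among Cy3 samples. The other 25 differences kept their sign in each dye alone, after dye adjustment, scaling, quantile normalization, medians, the fixed replicate block and without any 1 cadmium array. They were not recomputed with array weights or the random block. After quantile normalization 17 of 26 stayed past 0.5 and 7 moved by more than 1.5-fold. The number of probes called for cadmium over all probes was 177, with 322 after scaling, 678 with array weights and 114 to 201 without 1 array. With replicate number as a random block it was 192, and as a fixed replicate block 160. Of the 26 probes, 20 to 21 were called for level without any 1 array, 16 over control arrays alone (34.2% of all probes), and 25 with array weights (86.9%). Shares among the more variable probes were not computed for control arrays alone or array weights. Over all probes the count for level was 4009, with 2640 among the more variable probes, where fewer were tested, and 2434 without isobutanol. Dye was called on 6 to 8 of the 26 without 1 array. The causes of these shifts were not tested beyond that.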
